A study of Mus musculus with 12 samples.

Results

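The GADD45 genes were followed in RNA-seq of mouse colonic crypts: *Gadd45a*, *Gadd45b* and *Gadd45g*, which encode the stress sensors themselves, and *Gadd45gip1*, which encodes a protein that binds them. They were chosen by gene symbol, with the higher level of *Gadd45g* in CBPAAp53-floxed crypts already known, so the comparison of CBPAAp53-floxed with CBPWTp53-floxed mice is given here as a description without a test. The 4 members were taken out of 55471 genes listed, and all 4 were among the 14610 genes with enough reads to be tested.

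GADD45 proteins are small acidic nuclear proteins whose genes are switched on by DNA damage and other stress. They activate the kinase MAP3K4 upstream of p38 and JNK, bind PCNA and the inhibitor p21, restrain the CDK1-cyclin B1 kinase at entry into mitosis, and take part in active DNA demethylation with TET and TDG enzymes. *Gadd45a* is a classical target of p53, *Gadd45b* is known as a target of NF-kB and TGF-β signaling, and *Gadd45g* was first known as a gene induced by cytokines. The product of *Gadd45gip1*, also called CRIF1, is unrelated to them in sequence, and it is both a nuclear partner of GADD45 proteins and a component of the large subunit of the mitochondrial ribosome.

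Each of the 4 groups held 3 mice of the strain C57BL/6J, with 1 library per mouse. CBPAA mice carry a knock-in allele of *Crebbp*, made by gene targeting in embryonic stem cells, in which a pair of serines phosphorylated by IKKα is replaced by alanines in every cell. In p53ΔIEC mice *Trp53* is deleted by Cre under the Villin promoter, which is active in intestinal epithelium, while p53-floxed mice carry the floxed *Trp53* alleles without that deletion. The groups were therefore CBPWTp53-floxed (wild-type CBP, intact p53), CBPAAp53-floxed, CBPWTp53ΔIEC and CBPAAp53ΔIEC, and crypts were released with EDTA from colons of 8-week-old female mice as the methods give for crypt isolation.

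Libraries held from 11177430 to 18029125 reads assigned to genes, and *Trp53* lay between 23.3 and 33.5 TPM (a transcript's share of its library, scaled to gene length) in the 6 p53-floxed libraries and between 3.26 and 6.13 TPM in the 6 p53ΔIEC libraries. All 6 epithelial genes examined were abundant in every library, *Epcam* at 1011 TPM or above. Endothelial and leukocyte genes summed to at most 1.65 and 5.99 TPM in any library. The stroma genes summed to at most 8.33 TPM, with *Col1a1*, *Col3a1* and *Dcn* each at 0 in some libraries. Some libraries stood apart in genes that colon should hold little of: 6 small intestine genes, *Fabp6* and *Apoa1* foremost, summed to between 33.04 and 66.1 TPM in 8 libraries, but to 762 TPM in CBPAAp53-floxed replicate 2, 3586 in CBPWTp53ΔIEC replicate 1, 651 in CBPAAp53ΔIEC replicate 1 and 1533 in CBPAAp53ΔIEC replicate 3. The same 4 libraries held the most RNA of 5 Paneth cell genes, among them *Lyz1* and *Defa24*, with sums of 727, 12213, 1744 and 3166 TPM, against at most 253 TPM in the other 8. *Ang4*, listed as the sixth Paneth cell gene, did not follow them: it was at 1875 to 3725 TPM in CBPWTp53-floxed mice and highest in CBPAAp53-floxed replicate 3, at 11777 TPM. In these bulk samples, fewer cells of a type and less RNA per cell cannot be told apart.

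The promoters are shown because members of the family answer to different regulators. RefSeq (GRCm38.p6) gave a promoter for 3 of the 4 members. The 250 bases before each start are printed 5′ to 3′ on the strand of the gene, with every match to a searched motif in capitals.
*Gadd45a*, chr6:67037408-67037657, minus strand: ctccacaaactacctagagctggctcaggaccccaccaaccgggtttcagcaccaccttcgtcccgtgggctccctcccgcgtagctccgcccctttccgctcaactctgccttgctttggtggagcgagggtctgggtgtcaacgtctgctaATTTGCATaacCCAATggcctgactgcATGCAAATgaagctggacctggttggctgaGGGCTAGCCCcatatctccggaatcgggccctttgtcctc
*Gadd45b*, chr10:80929841-80930090, plus strand: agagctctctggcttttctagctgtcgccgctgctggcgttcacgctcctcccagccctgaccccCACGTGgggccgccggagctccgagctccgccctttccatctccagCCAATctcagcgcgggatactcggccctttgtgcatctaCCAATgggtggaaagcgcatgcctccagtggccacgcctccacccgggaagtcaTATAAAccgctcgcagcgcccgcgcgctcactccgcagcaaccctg
*Gadd45g*, chr13:51846425-51846674, plus strand: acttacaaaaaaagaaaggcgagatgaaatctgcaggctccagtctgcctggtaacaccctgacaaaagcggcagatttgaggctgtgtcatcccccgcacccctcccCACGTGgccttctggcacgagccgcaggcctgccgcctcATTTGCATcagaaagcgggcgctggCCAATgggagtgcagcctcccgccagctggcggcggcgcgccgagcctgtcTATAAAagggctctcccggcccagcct
Motifs were searched on both strands in windows of 300 bases, which add the first 50 bases of the transcript, and the same windows of 32851 promoters gave the background. The octamer ATTTGCAT was held by *Gadd45a*, with first bases 97 and 70 bases before the start, and by *Gadd45g*, 103 bases before it, against 1.74% of all promoters. The E-box CACGTG was held by *Gadd45b* and *Gadd45g* (7.15% of all promoters), the TATA box TATAAA by the same pair, 46 and 27 bases before the start (13.6%), and CCAAT by all 3 (37.4%). A p53 half-site lay 40 bases before the RefSeq start of *Gadd45a* alone (8.36% of promoters hold one). No window held the CRE half-site TGACG, found in 20.8%, or the NF-kB site, found in 8.46%. Introns and sequence further upstream were not searched, so a match or its absence here does not tell which factors act on a gene. None of the matches overlapped another. GC content was 61% for *Gadd45a*, 62% for *Gadd45b* and 62.3% for *Gadd45g*, against a median of 52.7% over all promoters.

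In the annotation of the build used for counting (GRCm38, GENCODE M21), *Gadd45a* (ENSMUSG00000036390) spans chr6:67035096-67037457, *Gadd45b* (ENSMUSG00000015312) chr10:80930073-80932204, *Gadd45g* (ENSMUSG00000021453) chr13:51846678-51848468 and *Gadd45gip1* (ENSMUSG00000033751) chr8:84831522-84835482. For *Gadd45a* and *Gadd45b* this annotation starts the gene upstream of the RefSeq start, so the last bases printed above lie inside the gene as counted. The p53 half-site of *Gadd45a* is among them. No stretch of 50 bases in the members' transcripts was shared with a transcript of another gene read in the same direction, so the 3 related genes share no such stretch. Matches in the opposite direction were not searched. *Gadd45a* is overlapped on the opposite strand by the noncoding *E230016M11Rik* over 337 of its 1764 exonic bases. *Gadd45gip1* is overlapped by 1 other gene as well, whose strand and shared exonic bases were not examined. The labels name a stranded library kit, but whether the counting used it is not stated, so reads from opposite strands of 1 locus cannot be told apart here.

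Per length, the order of levels was the same in all 12 libraries: *Gadd45a* highest, then *Gadd45gip1*, *Gadd45b* and *Gadd45g*. The mean over 12 libraries was 51.0 ± 6.14 TPM (SD) for *Gadd45a*, 24.4 ± 4.13 TPM for *Gadd45gip1*, 17.1 ± 1.89 TPM for *Gadd45b* and 11.4 ± 3.58 TPM for *Gadd45g*. Their ranks by TPM among the 14610 genes tested were 2440, 4629, 5972 and 7592. The highest library exceeded the lowest 1.78-fold for *Gadd45gip1*, 1.47-fold for *Gadd45a* and 1.39-fold for *Gadd45b*. For *Gadd45g* this was 2.80-fold, between libraries of the 2 groups on which the family was chosen, so its spread is not set against the others. *Gadd45g* had between 30 and 137 reads per library, with a counting error of 11.5% at its mean of 75.1 reads. The variation between mice of 1 group, as edgeR estimated it, was 22.1% for *Gadd45g*, 15.7% for *Gadd45b* and 11.9% for both *Gadd45a* and *Gadd45gip1*.

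**Figure D1:**
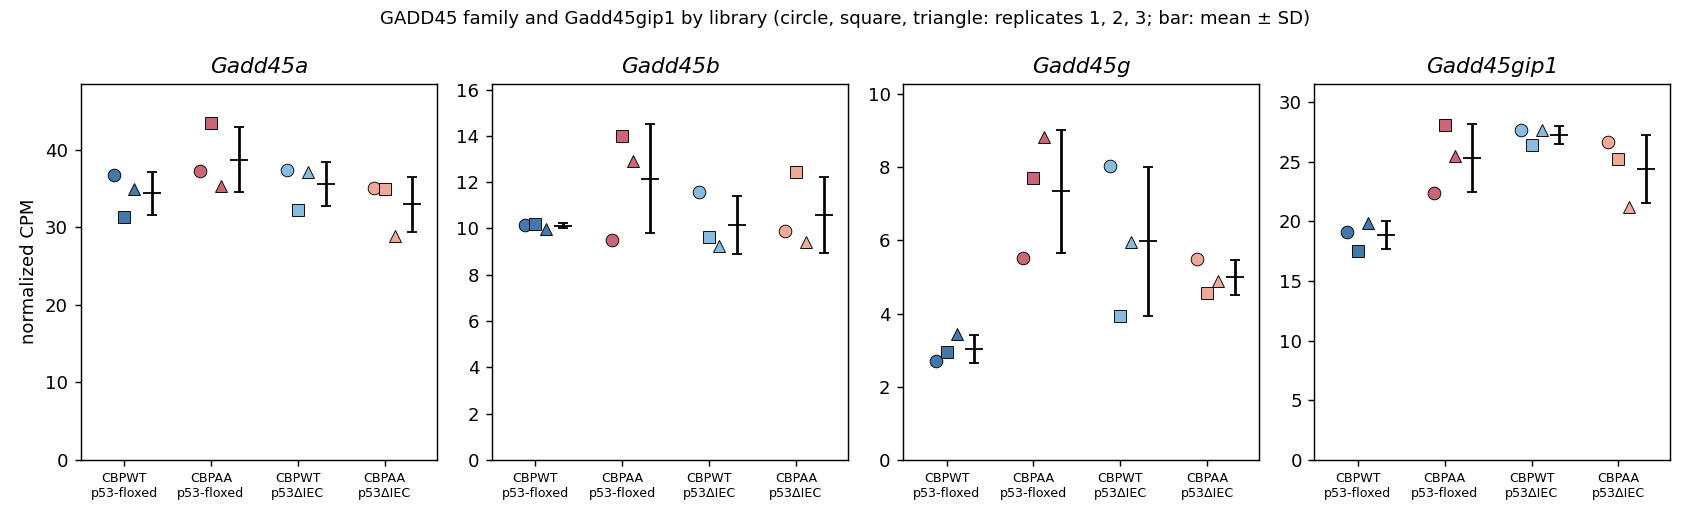
Normalized CPM (counts scaled to the TMM library size, vertical axis, from 0) of the 4 genes in the 12 libraries, by group; circles, squares and triangles are replicates 1, 2 and 3, and bars give mean ± SD (n = 3). The CBPWTp53-floxed libraries lie between 2.69 and 3.44 for *Gadd45g*, below the other 9 libraries, and between 17.5 and 19.9 for *Gadd45gip1*, below the other 9 as well. Against CBPWTp53-floxed mice alone, 9.75% of all genes were higher without overlap in CBPAAp53-floxed and 16.1% in CBPWTp53ΔIEC mice. The share against all other groups was not counted.

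*Gadd45g* encodes the family member that inhibits CDK1 and activates MAP3K4 like its relatives. Its normalized CPM was 2.69, 2.95 and 3.44 in the 3 CBPWTp53-floxed mice and 5.51, 7.71 and 8.83 in the 3 CBPAAp53-floxed mice. It was 8.03, 3.93 and 5.96 in CBPWTp53ΔIEC and 5.50, 4.56 and 4.90 in CBPAAp53ΔIEC mice. The CBPWTp53-floxed mice were thus lowest without overlap with any other group. Against CBPAAp53-floxed mice this restates the choice, and the share of all genes that do so was not counted. CBPAAp53-floxed mice were all above CBPAAp53ΔIEC mice by a margin of 5.51 against 5.50, and the range of CBPWTp53ΔIEC mice covered that of CBPAAp53ΔIEC mice.

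On the TPM scale the group means of *Gadd45g* were 6.75 ± 1.06 in CBPWTp53-floxed, 14.8 ± 2.01 in CBPAAp53-floxed, 12.7 ± 3.38 in CBPWTp53ΔIEC and 11.2 ± 1.17 in CBPAAp53ΔIEC crypts (SD, n = 3 each). From low to high the order was CBPWTp53-floxed, CBPAAp53ΔIEC, CBPWTp53ΔIEC, CBPAAp53-floxed, and the 2 p53ΔIEC groups did not differ beyond their spread. Over all genes tested the median log2 TPM ratio was −0.11 for CBPAAp53-floxed against CBPWTp53-floxed and 0.14 for CBPAAp53ΔIEC against CBPAAp53-floxed crypts, while the median log2 fold change after TMM scaling was 0.01 in both, so the edgeR values are those used below.

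In the comparison on which the family was picked, *Gadd45g* was 2.41-fold higher in CBPAAp53-floxed than in CBPWTp53-floxed mice, a log2 fold change of 1.27 with a standard error of 0.26. *Gadd45gip1* was at 0.43 (SE 0.12), *Gadd45b* at 0.27 (SE 0.17) and *Gadd45a* at 0.17 (SE 0.12) on the same log2 scale. *Gadd45g* and *Gadd45gip1* were the members whose 2 groups did not overlap, as 9.75% of all genes tested were higher without overlap, and 0% of genes (0 of 14610) passed the adjusted threshold of edgeR there, with 8.04% (1174 genes) at an unadjusted p under 0.05 and 33 genes by DESeq2. These values describe the choice and were not tested.

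In mice that the choice did not use, the effect of the CBP genotype was tested for all members: CBPAAp53ΔIEC against CBPWTp53ΔIEC. *Gadd45g* was at a log2 fold change of −0.25 (SE 0.26, 95% confidence interval −0.80 to 0.31, edgeR adjusted p = 0.985). *Gadd45a* was at −0.11 (adjusted p = 0.985), *Gadd45b* at 0.06 (adjusted p = 0.991) and *Gadd45gip1* at −0.16 (adjusted p = 0.985). Thus 0 of 4 members were called by edgeR under the study's cutoff, which asks for 0.05 on the adjusted p and for a change of more than 0.5 on the log2 scale in either direction, where 0.00684% of all genes (1 gene) were, and 0 of 4 passed an unadjusted p under 0.05, where 3.57% of all genes did, or were called by DESeq2. No member separated the 2 groups, which 9.26% of all genes did.

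Deletion of p53 was compared within each CBP genotype. For *Gadd45g* these comparisons share mice with the choice, so its values are given with no test: the log2 fold change was 0.96 (SE 0.26) in CBPWTp53ΔIEC against CBPWTp53-floxed and −0.56 (SE 0.25) in CBPAAp53ΔIEC against CBPAAp53-floxed mice. Every CBPWTp53ΔIEC mouse was above every CBPWTp53-floxed mouse, as for 16.1% of all genes, and every CBPAAp53ΔIEC mouse below every CBPAAp53-floxed mouse, as for 7.18%. The difference between these changes was −1.52 (SE 0.37) on the log2 scale. Averaged over both CBP genotypes, *Gadd45g* was at 0.20 (95% confidence interval −0.19 to 0.60, edgeR adjusted p = 0.556). The mice of the choice enter this average, though the difference between the 2 p53-floxed groups does not.

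*Gadd45gip1* was the 1 member that rose past the threshold with p53 deletion. Its normalized CPM was 19.1, 17.5 and 19.9 in CBPWTp53-floxed and 27.6, 26.4 and 27.6 in CBPWTp53ΔIEC mice, higher without overlap, as were 16.1% of all genes. The log2 fold change was 0.53 (SE 0.12, 1.44-fold, edgeR adjusted p = 0.0352), and 1 of the 3 members tested was called in this comparison against 3.15% of all genes. The CBPWTp53-floxed mice in it are also mice of the choice, which rested on *Gadd45g*. Over the 12 libraries *Gadd45gip1* followed *Gadd45g* (Pearson's r = 0.79), so this test is not independent of the choice. The call depended on the libraries: when each of the 12 was dropped, the log2 fold change stayed between 0.48 and 0.57, but the adjusted p ran from 0.0155 to 0.154 and the call was lost without any one of the 3 CBPWTp53-floxed mice, CBPAAp53-floxed replicate 3, or CBPWTp53ΔIEC replicate 2 or 3. It was also lost without a filter on low counts (adjusted p = 0.0516).

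With mutant CBP the same deletion left *Gadd45gip1* at 26.7, 25.2 and 21.2 normalized CPM in CBPAAp53ΔIEC against 22.4, 28.0 and 25.5 in CBPAAp53-floxed mice, which overlapped. The log2 fold change was −0.06 (SE 0.12, edgeR adjusted p = 0.860). The difference between the changes in the 2 CBP genotypes was −0.59 (SE 0.17). It contains the comparison on which the family was chosen, so no test of it is given. Averaged over CBP genotypes *Gadd45gip1* was at 0.24 (adjusted p = 0.125).

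*Gadd45a*, the family's p53 target, was called by edgeR in none of the comparisons tested. Normalized CPM was 36.7, 31.4 and 35.0 in CBPWTp53-floxed, 37.3, 43.4 and 35.4 in CBPAAp53-floxed, 37.4, 32.3 and 37.1 in CBPWTp53ΔIEC and 35.1, 35.0 and 28.9 in CBPAAp53ΔIEC mice. CBPAAp53ΔIEC mice lay below CBPAAp53-floxed mice without overlap on this scale, as did 7.18% of all genes, though not on the TPM scale, and the other groups overlapped in the comparisons made. The log2 fold change with p53 deletion was 0.05 (SE 0.12, edgeR adjusted p = 0.847) with wild-type CBP and −0.23 (SE 0.12, adjusted p = 0.424) with mutant CBP. Averaged over both it was −0.09 (adjusted p = 0.561), where 3.5% of all genes and 0 of the 4 members were called. At an unadjusted p under 0.05, *Gadd45gip1* alone passed in that average, at 0.0146, as did 21.9% of all genes, and DESeq2 called none of the 4.

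*Gadd45b* encodes the member that blocks JNK signaling downstream of NF-kB. It was near constant in CBPWTp53-floxed mice at 10.2, 10.2 and 10.0 normalized CPM, and was 9.52, 14.0 and 12.9 in CBPAAp53-floxed, 11.6, 9.63 and 9.24 in CBPWTp53ΔIEC and 9.89, 12.5 and 9.39 in CBPAAp53ΔIEC mice. All groups overlapped. Its log2 fold change with p53 deletion was 0.00 (SE 0.17, edgeR adjusted p = 0.997) with wild-type and −0.20 (SE 0.17, adjusted p = 0.622) with mutant CBP. In the latter comparison 0 of the 3 members tested were called, by edgeR or DESeq2, where edgeR called 0.0274% of all genes, and 0 passed an unadjusted p under 0.05, where 12.6% of all genes did.

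**Figure D2:**
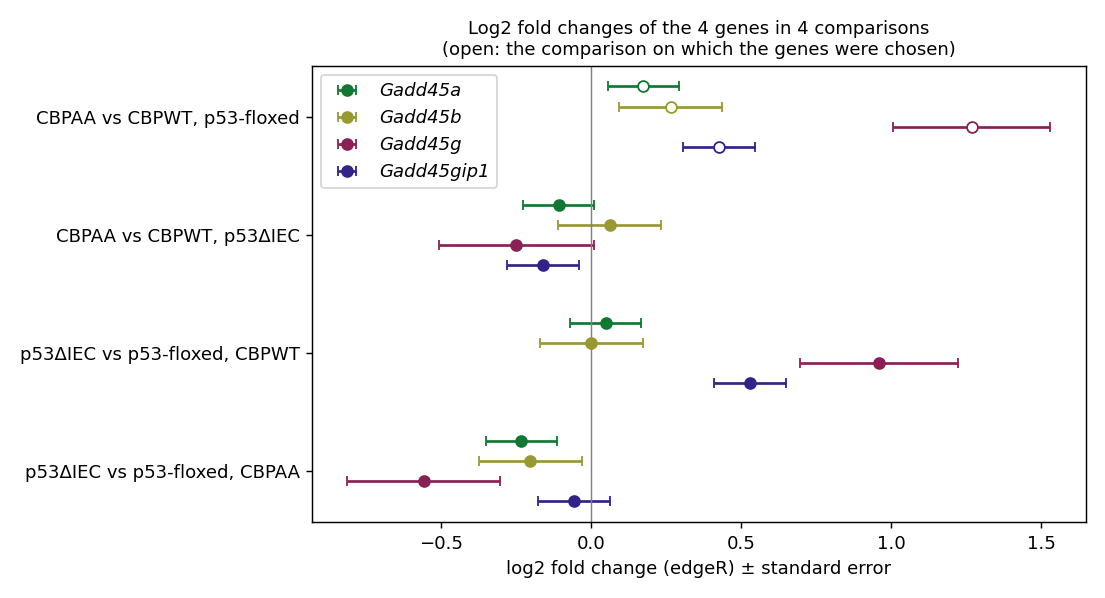
Log2 fold change (edgeR, horizontal axis) of the 4 genes in 4 comparisons, with bars for ± 1 standard error; open points mark the comparison on which the genes were chosen. *Gadd45g* lies at 1.27 and 0.96 in the pair of comparisons against CBPWTp53-floxed mice and at −0.25 and −0.56 in the others, while *Gadd45a* and *Gadd45b* stay within 0.27 of 0 throughout.

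Across the 12 libraries *Gadd45g* followed *Gadd45gip1* more closely than its relatives: Pearson's r of log2 CPM was 0.79 with *Gadd45gip1*, 0.53 with *Gadd45b* and 0.46 with *Gadd45a*. The points share the 4 groups and their depth, so these are descriptions. The genes most like *Gadd45g* over the 12 libraries were *Hnrnpdl* (r = 0.94), an RNA-binding protein, *Bcas2* (0.94), a splicing factor subunit, *Nipsnap1* (0.93), a mitochondrial protein, *Gars1* (0.93), the glycyl-tRNA synthetase, and *Ttc39c* (0.90). Those most like *Gadd45a* were *Stx4a* (0.90), *Noxo1* (0.88), *Iscu* (0.85), *Hmg20b* (0.84) and *Golt1a* (0.83). For *Gadd45b* they were *mt-Rnr1* (0.91), the mitochondrial 12S ribosomal RNA, *Rpl11* (0.89), *Cracr2b* (0.88), *Rangrf* (0.86) and *Gm12366* (0.85).

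The other genes of the pathway were read from lists. Among 15 regulators of GADD45 transcription, 2 were called in CBPWTp53ΔIEC against CBPWTp53-floxed mice, where 3.15% of all genes were called. *Trp53*, the deleted gene, fell by 2.64 on the log2 scale (edgeR adjusted p = 0.000375), and *Brca1*, whose product acts on the *Gadd45a* promoter through octamer and CCAAT motifs, rose by 1.98 (SE 0.39, adjusted p = 0.0288). The list's median was −0.19, against 0.01 over all genes. With mutant CBP only *Trp53* was called, at −2.58, where 0.0274% of all genes were called. The NF-kB subunits, FOXO factors, SMADs, *Atf4*, *Egr1*, *Crebbp* and *Ep300* passed in neither comparison.

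The kinase arm that GADD45 proteins switch on had no called gene. Of 12 genes from *Map3k4* to the p38 and JNK kinases, 0 were called in any of the 6 comparisons by edgeR or DESeq2. At most 2 passed an unadjusted p under 0.05 in one comparison. This was so in CBPWTp53ΔIEC against CBPWTp53-floxed mice and in the average, where 20.9% and 21.9% of all genes passed. The log2 fold changes of the 12 genes ran from −0.38 to 0.69 in CBPWTp53ΔIEC against CBPWTp53-floxed and from −0.25 to 0.20 in CBPAAp53ΔIEC against CBPWTp53ΔIEC crypts.

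Most of the cell cycle genes listed, some of which encode proteins that GADD45 binds, rose with p53 deletion. Of 9 such genes, 6 were called in CBPWTp53ΔIEC against CBPWTp53-floxed mice, all of them higher, where 3.15% of all genes were called. The list median was 1.71 on the log2 scale against 0.01 over all genes. *Aurka*, a mitotic kinase held back by *Gadd45a*, rose by 1.98 (SE 0.45, edgeR adjusted p = 0.0407), and *Ccnb1*, cyclin B1 itself, by 1.86 (SE 0.41, adjusted p = 0.0399). In CBPAAp53ΔIEC against CBPAAp53-floxed mice the median was 1.08 and 0 were called by edgeR. There 6 were at an unadjusted p under 0.05, as were 12.6% of all genes, and DESeq2 called 3. Averaged over both CBP genotypes 7 rose past the threshold, *Aurka* by 1.81 and *Ccnb1* by 1.64, where 3.5% of all genes were called. *Gadd45a*, *Gadd45b* and *Gadd45g* were not called in this average.

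Among 12 DNA demethylation and excision repair partners, edgeR called 0 within either CBP genotype, and DESeq2 called *Tet3* with wild-type CBP. At an unadjusted p under 0.05 were 4 with wild-type CBP (20.9% of all genes) and 2 with mutant CBP (12.6%). *Mbd4*, a glycosylase of G:T mismatches, rose by 0.87 in the averaged comparison (SE 0.22, adjusted p = 0.0379), where 3.5% of all genes were called. Of 12 other growth arrest and stress genes, *Plk2*, a p53-induced kinase, fell by 0.71 on the log2 scale in CBPWTp53ΔIEC against CBPWTp53-floxed mice (adjusted p = 0.0316). There 3.15% of all genes were called. *Plk2* fell by 0.61 in the average, where 3.5% were called. The other 11, *Ddit3* and *Ppp1r15a* (Gadd34) among them, were not called by edgeR in any comparison.

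Of 16 other p53 targets, 6 fell and none rose past the threshold in CBPWTp53ΔIEC against CBPWTp53-floxed mice, where 3.15% of all genes were called. Their median log2 fold change was −0.24, where *Gadd45a* was at 0.05. Of the 16, 12 were lower and 4 were higher, by at most 0.12, so *Gadd45a* was not alone in showing no fall. *Eda2r* and *Phlda3*, whose fitted changes were the largest, had 18 to 36 and 7 to 23 reads in CBPWTp53-floxed libraries and at most 1 and 2 reads in CBPWTp53ΔIEC libraries. In CBPAAp53ΔIEC against CBPAAp53-floxed mice, where 0.0274% of all genes were called, 2 fell past the threshold. These were *Eda2r* and *Ephx1*, the latter by 1.93 on the log2 scale (SE 0.22, edgeR adjusted p = 0.0047). Of 10 NF-kB targets tested, out of 12 listed, edgeR and DESeq2 called 0 in every comparison. At most 3 were at an unadjusted p under 0.05, in the average, where 21.9% of all genes were.

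Genes that rise within minutes of tissue handling were read because *Gadd45b* and *Gadd45g* can rise with them. Of 16 immediate early and dissociation genes, edgeR called 0 in every comparison, while DESeq2 called *Hspa1b* in CBPAAp53ΔIEC against CBPAAp53-floxed mice and *Dusp1*, *Hspa1a* and *Hspa1b* in the average. They were mostly higher in CBPAAp53-floxed than in CBPWTp53-floxed mice (13 of 16, median log2 fold change 0.19, 2 at an unadjusted p under 0.05, against 8.04% of all genes). They were mostly lower in CBPAAp53ΔIEC than in CBPAAp53-floxed mice (14 of 16, median −0.29, 7 at an unadjusted p under 0.05, 2 of them higher, against 12.6% of all genes). Their part in the values of *Gadd45g* was not tested.

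*Gadd45gip1* was set beside the other genes of the large mitochondrial ribosome subunit, of which 48 of 49 were tested. In CBPWTp53ΔIEC against CBPWTp53-floxed mice, 43 of the 48 were higher, with a median log2 fold change of 0.27 against 0.01 over all genes, and *Gadd45gip1* was at 0.53. EdgeR called 0 of the 48, with 19 at an unadjusted p under 0.05 (20.9% of all genes were), all of them higher, and DESeq2 called *Mrpl21*. In CBPAAp53ΔIEC against CBPAAp53-floxed mice 36 of the 48 were lower, with a median of −0.07, near the −0.06 of *Gadd45gip1*. The difference between these changes was negative for 45 of the 48, with a median of −0.28 against −0.59 for *Gadd45gip1*, and edgeR called 0, with 16 at an unadjusted p under 0.05, against 10.3% of all genes. In the comparison of the choice the list's median was 0.17 and that of CBPAAp53ΔIEC against CBPWTp53ΔIEC −0.16.

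**Figure D3:**
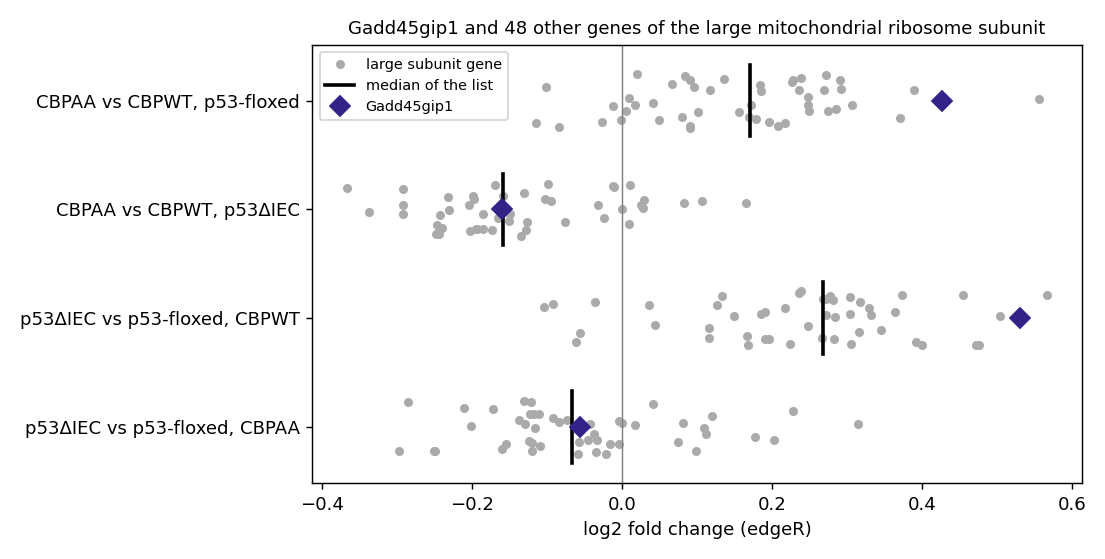
Log2 fold change (edgeR, horizontal axis) of 48 genes of the large mitochondrial ribosome subunit (gray points, spread vertically only to part them), their median (black line) and *Gadd45gip1* (diamond) in 4 comparisons. *Gadd45gip1* lies above the median in the 2 comparisons against CBPWTp53-floxed mice, at 0.43 against 0.17 and 0.53 against 0.27, and on it in the others.

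The libraries that carry small intestine or Paneth cell genes were read beside the members. Paneth genes summed to between 1894 and 3783 TPM in CBPWTp53-floxed mice, 3849 and 12030 in CBPAAp53-floxed, 1514 and 14945 in CBPWTp53ΔIEC and 342.7 and 8108 in CBPAAp53ΔIEC mice. In the p53-floxed mice *Ang4* made up most of that sum (3725 of 3783 TPM in CBPWTp53-floxed replicate 3 and 11777 of 12030 TPM in CBPAAp53-floxed replicate 3). Without *Ang4*, the highest p53-floxed library was CBPAAp53-floxed replicate 2, with 727 TPM and 7.71 CPM of *Gadd45g*, while CBPAAp53-floxed replicate 3 had 253 TPM and 8.83 CPM. Without the 3 libraries above 7000 TPM of the 6 Paneth genes, of which CBPAAp53-floxed replicate 3 passed that level by *Ang4*, the log2 fold change of *Gadd45g* was 1.11 in CBPAAp53-floxed against CBPWTp53-floxed, 0.69 in CBPWTp53ΔIEC against CBPWTp53-floxed and −0.40 in CBPAAp53ΔIEC against CBPAAp53-floxed mice. Without the 4 libraries above 100 TPM of small intestine genes, which hold the most of the other 5 Paneth genes too, these were 1.21, 0.68 and −0.64. That setting left CBPAAp53ΔIEC replicate 2 alone in its group, so the −0.64 rests on a single mouse of that genotype. *Gadd45gip1* in CBPWTp53ΔIEC against CBPWTp53-floxed mice was at 0.52 without the 3 libraries (edgeR adjusted p = 0.0163) and at 0.51 without the 4.

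Enteroendocrine genes summed to between 626 and 639 TPM in CBPWTp53-floxed mice and between 381 and 566 TPM in CBPAAp53-floxed mice, without overlap. Taken singly, *Chgb*, *Neurod1*, *Gcg* and *Tph1* were lower without overlap, as were 9.62% of all genes in normalized CPM, while *Chga*, *Neurog3* and *Pyy* overlapped. The sums lay between 464 and 699 TPM in CBPWTp53ΔIEC and 384 and 686 TPM in CBPAAp53ΔIEC mice. In the comparison that called *Gadd45gip1*, the colonocyte sum was higher without overlap. It ran from 24180 to 29362 TPM in CBPWTp53ΔIEC against 18788 to 22661 TPM in CBPWTp53-floxed mice. This rise lay in *Car1*, at 14552 to 18850 against 8601 to 10887 TPM. *Car4* was lower, at 440 to 544 against 570 to 746 TPM, and the other colonocyte genes overlapped. The stroma sum was lower, from 4.18 to 6.08 against 7.91 to 8.33 TPM. This fall lay mostly in *Pdgfrb*, at 1.81 to 3.81 against 4.99 to 5.96 TPM. *Vim* overlapped, and *Dcn* was higher but near 0, at most 0.136 TPM. Of these markers edgeR called *Pdgfrb* in this comparison, at a log2 fold change of −0.97 (adjusted p = 0.0344). Goblet cell genes lay between 10810 and 20586 TPM, tuft cell genes between 18.4 and 26.6 TPM and stem cell genes between 36.0 and 66.5 TPM over the 12 libraries. The part of cell composition in the values of the family was not tested.

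**Figure D4:**
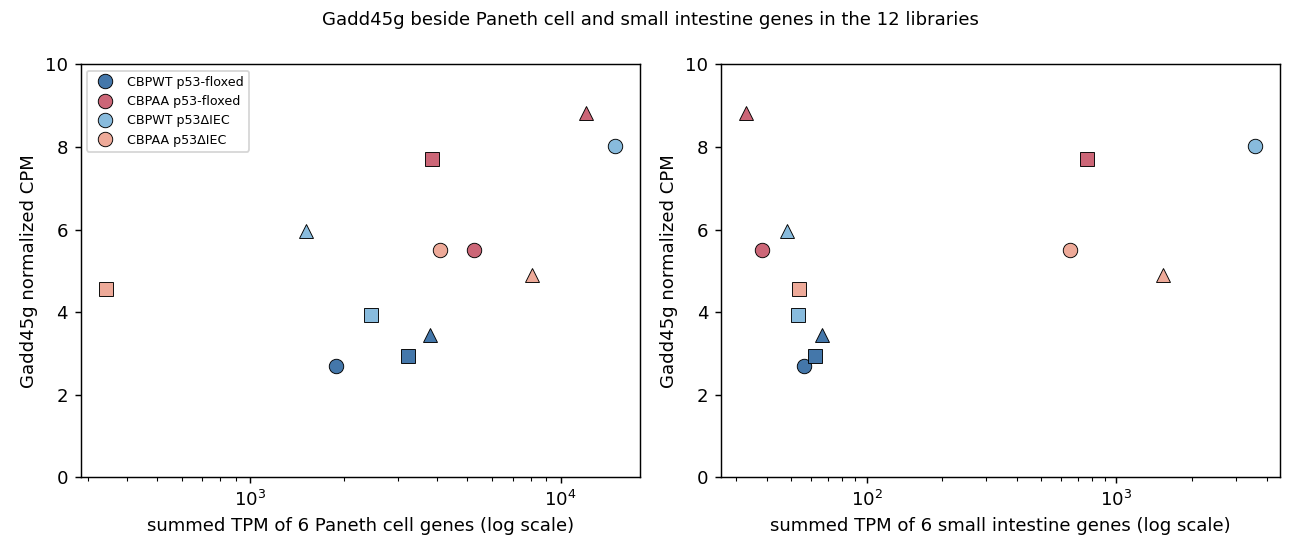
Normalized CPM of *Gadd45g* (vertical axis, from 0) against the summed TPM of 6 Paneth cell genes (left) and 6 small intestine genes (right), both on log axes, in the 12 libraries; colors give the group and circles, squares and triangles replicates 1, 2 and 3. CBPAAp53-floxed replicates 1 and 3 hold 5.51 and 8.83 CPM of *Gadd45g* at the lowest small intestine sums of the 12, 38.3 and 33.04 TPM, and CBPWTp53ΔIEC replicate 1 holds 8.03 CPM at the highest, 3586 TPM.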

How the data were processed

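RNA of colonic crypts from 12 mice was sequenced. The authors deposited raw read counts per gene and library and TPM per gene and library in 1 table. The submitters' processing notes name fastp 0.20.0, FastQC 0.11.9, HISAT2 2.1.0, SAMtools 1.9, featureCounts of Subread 2.0.1 and GRCm38, and strand use is not given in the sources used here. The same table carries fold changes with p-values for 5 comparisons made by the authors, which were not used. Groups and replicate numbers came from the sample labels, read with the series title.

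Differential expression of the counts used edgeR 4.0.16 under R 4.3.3 (low counts removed by filterByExpr at a minimum of 10, TMM, robust quasi-likelihood F test, 1 factor of 4 groups, all 12 libraries), with Benjamini-Hochberg adjustment over 14610 genes. A called gene had an adjusted p below 0.05 and moved by more than 0.5 on the log2 scale. Normalized CPM used TMM library sizes, and likeness used log2 CPM with a prior count of 2. The members and lists were chosen with earlier results of these data known. Named genes were the 4 members, *Trp53*, the called genes of each list (where more than 4, the 2 largest rises and the 2 largest falls) and the 5 genes most correlated with *Gadd45a*, *Gadd45b* and *Gadd45g*. Genes named outside this rule, such as the neighbor *E230016M11Rik*, genes called by DESeq2 alone and single markers, were chosen after their values were seen. Alternatives were DESeq2 1.42.0, its size factors, upper quartile scaling, other filters, the replicate number as a block, only the groups compared, each library left out and, chosen after seeing the data, the exclusion of libraries with high small intestine or Paneth gene sums. The labels call the replicates biological. Intervals of the fits include the spread between mice, and counting errors cover counting only. Python 3.11.15 and matplotlib 3.10.9 made the plots.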

Additional observations from a re-analysis of the deposited data

Results flagged for a closer look

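The change of *Gadd45g* with p53 deletion went in opposite directions in the 2 CBP genotypes. All 3 CBPWTp53ΔIEC mice were above the mean of CBPWTp53-floxed mice, by 2.07 to 8.06 TPM, and all 3 CBPAAp53ΔIEC mice were below the mean of CBPAAp53-floxed mice, by −2.29 to −4.46 TPM. The difference between the changes was −1.52 on the log2 scale. This difference was not tested, because it contains the comparison on which the family was chosen. Without the 3 libraries above 7000 TPM of Paneth genes, 1 of them by *Ang4*, it was −1.09, and without the 4 libraries above 100 TPM of small intestine genes −1.32. The latter rests on CBPAAp53ΔIEC replicate 2, the only library of its group left. No group here had more than 3 mice, so no single mouse was tested as an outlier.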

How the results depend on the processing

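*Gadd45gip1* in CBPWTp53ΔIEC against CBPWTp53-floxed mice kept its direction under all 21 alternatives and its call under 13. It lost the call without a filter on low counts (log2 fold change 0.51), and with a replicate block it was at 0.53 (adjusted p = 0.0729). With a library left out it ran from 0.48 to 0.57. The replicate block changed no other call of a member, and same-numbered libraries deviated from their group means with correlations from −0.53 to 0.55 over 18 pairs, so the numbers were not taken as pairs.

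Some values that were not called changed sign, and the cause was not tested. Not all of them were near 0 in the main fit. There *Gadd45g* was at −0.25 (SE 0.26) in CBPAAp53ΔIEC against CBPWTp53ΔIEC mice. *Gadd45b* was at −0.20 both in CBPAAp53ΔIEC against CBPAAp53-floxed mice and in the difference of changes. *Gadd45b* in CBPWTp53ΔIEC against CBPWTp53-floxed mice was at −0.0068 with DESeq2, −0.0039 with its size factors, −0.021 without a filter, −0.00014 with at least 10 counts in every sample, −0.0032 with only the groups compared, −0.10 without libraries high in small intestine genes, −0.10 without those high in Paneth genes, and −0.10 to 0.065 with a library left out, where *Gadd45a* ran from −0.012 to 0.12. Without libraries high in small intestine genes, *Gadd45b* was at 0.16 and *Gadd45gip1* at 0.078 in CBPAAp53ΔIEC against CBPAAp53-floxed, *Gadd45a* at 0.015 in CBPAAp53ΔIEC against CBPWTp53ΔIEC, and *Gadd45b* at 0.027 in the average and 0.26 in the difference of changes. All of these rest on CBPAAp53ΔIEC replicate 2, the only library of its group left in that setting. Without libraries high in Paneth genes, *Gadd45gip1* was at 0.044 in CBPAAp53ΔIEC against CBPAAp53-floxed, *Gadd45a* at 0.014 and *Gadd45g* at 0.027 in CBPAAp53ΔIEC against CBPWTp53ΔIEC, and *Gadd45b* at 0.024 in the difference of changes. With a library left out, *Gadd45gip1* ran from −0.14 to 0.033 in CBPAAp53ΔIEC against CBPAAp53-floxed, and in CBPAAp53ΔIEC against CBPWTp53ΔIEC *Gadd45b* from −0.071 to 0.17 and *Gadd45g* from −0.48 to 0.018.

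The number of genes called depended on the tool and the libraries. In CBPWTp53ΔIEC against CBPWTp53-floxed mice it was 460, 863 with DESeq2, 32 with the block, 723 with only the groups compared and 1 to 906 with a library left out. In CBPAAp53ΔIEC against CBPAAp53-floxed mice it was 4, 73 with DESeq2, 2 with the block, and 1 to 326 with a library left out, the 326 without CBPAAp53ΔIEC replicate 3. In the average it was 511, 761 with DESeq2, 304 with the block and 105 to 1073 with a library left out, and in CBPAAp53-floxed against CBPWTp53-floxed mice 0 and 33. Without the 3 libraries high in Paneth genes the numbers of these comparisons were 1395, 1177, 1695 and 22. Without the 4 high in small intestine genes CBPAAp53ΔIEC replicate 2 was alone in its group, so the numbers called in that setting are not given. The difference of changes called 1 gene and 30 with DESeq2, and CBPAAp53ΔIEC against CBPWTp53ΔIEC called 1 with either tool. *Gadd45g* had a mean of 75.1 reads per library, and with 3 mice a group the standard error of its change in the p53ΔIEC mice was 0.26 on the log2 scale.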
